A study of Mus musculus with 6 samples.

Results

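Matrix-cleaving metalloproteinases and their inhibitors were followed in limb cells sorted for nuclear GFP driven by Pax7, the paired-box gene of muscle stem and progenitor cells. The set was defined by name and comprised 40 genes of the MMP, TIMP and ADAMTS families with Reck, of which 35 had a named probe set on the array, out of 18182 genes measured. Mmp15, Mmp28, Adamts2, Adamts14 and Adamts17 were not analysed here for want of one. Where a gene had several probe sets, the one brightest on average across the 6 arrays stood for it.

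Fetal cells came from E17.5 and embryonic cells from E12.5 limb buds, labelled as limb skeletal muscle, and both ages carried the Tg:Pax7-nGFP transgene on a mixed C57BL/6 and DBA2 background. Limbs of both ages were trypsinised and sorted for GFP, so the readout covers whatever cells carried GFP, and the labels do not say whether 1 embryo or a pool made up a replicate. There were 3 arrays per age (replicates A, B and C), and the only comparison is E17.5 against E12.5. Values are log2 signals after GCRMA, and means carry ± SD over the 3 arrays of an age (n = 3). Differences are the E17.5 mean less the E12.5 mean, with a standard error (SE) and a p adjusted by Benjamini-Hochberg across all genes, both from limma. A gene is called when that p is under 0.05.

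Matrix metalloproteinases (MMPs) are zinc proteases made as inactive precursors, either secreted or anchored to the membrane, which cleave collagens, laminins and many surface proteins. Tissue inhibitors of metalloproteinases (TIMPs) and the membrane protein RECK block them, and TIMP3 also blocks several ADAMTS enzymes. The ADAMTS proteases carry thrombospondin repeats and are secreted. One clade of them cuts the proteoglycans versican and aggrecan, another trims procollagens, and in cultured mouse myoblasts the clearing of versican has been linked to fusion.

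The arrays had similar medians (3.38 to 3.47), and 33.7% to 34.8% of probe sets on each reached a value of 6. In the range under 4, GCRMA signals are dense and hold little specific signal, and 42.8% of genes had a mean there. E17.5 A and B stood apart as near copies of each other, with an SD of their difference of 0.152 among brighter genes (mean 6 or more), whereas the other pairs of one age gave 0.412 to 0.551. Because they may not be independent, calls are also given with these arrays averaged as 1 sample ("averaged"). The 8 myogenic markers examined all had a mean of at least 6, and 2 of them rose and 1 fell. Pax7 was at 12.37 ± 0.15 at E17.5 and 11.46 ± 0.28 at E12.5, and Myog, which marks differentiating myoblasts, at 13.06 ± 0.07 at E17.5 and 11.20 ± 0.75 at E12.5. Pax3, which marks embryonic muscle progenitors, was lower, at 5.38 ± 0.20 at E17.5 and 7.94 ± 0.998 at E12.5.

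Markers of other cells also moved with age, and 16.9% of all genes were called in either direction. Where linear signals are summed below, the brightest marker of a list weighs most. The summed linear signal of 9 macrophage markers was 201.9 to 224.3 at E17.5 and 97.7 to 199.2 at E12.5. Of these Cd68 rose by 2.99 and Lyz2 by 1.06, while Ptprc and Fcgr1 were under 3 on every array. Among 6 endothelial markers, summed at 1113 to 1344 at E17.5 and 87.6 to 203.0 at E12.5, Pecam1 was also under 3 on every array, and 1 marker, Tek, rose by 4.88. No other marker of this list reached 6 at E17.5, so the sum there is mostly Tek. Cdh5, Kdr, Emcn and Cldn5 differed by -0.35, -1.37, -0.75 and -0.83 and were not called. Of 5 pericyte and smooth muscle markers, summed at 10590 to 11290 at E17.5 and 12910 to 16280 at E12.5, Rgs5 and Cspg4 rose (3.89 and 1.90) and Acta2 fell (-0.49). Of 5 tendon markers, summed at 335.2 to 931.1 at E17.5 and 353.3 to 584.3 at E12.5, Tnmd and Thbs4 rose (4.38 and 3.40) and Mkx fell (-3.41). Among 3 bone markers, summed at 578.1 to 1747 at E17.5 and 49.0 to 52.6 at E12.5, Dmp1 rose (4.89). The others, Sp7 and Ibsp, were under 3 on every array, so the E17.5 sum is mostly Dmp1. Of 7 neutrophil markers, summed at 74.0 to 97.6 at E17.5 and 39.5 to 40.3 at E12.5, S100a8 and S100a9 rose (1.69 and 1.92). The others, Ngp, Camp, Elane, Mpo and Ltf, were under 3 on every array and not called. Of 7 cartilage markers, summed at 305.6 to 1074 at E17.5 and 3484 to 6198 at E12.5, Col9a1 fell (-4.02) and 6 were not called. Erbb3 fell (-2.80) among 3 Schwann cell markers, whose sum was 807.1 to 1047 at E17.5 and 5061 to 7813 at E12.5. The others, Sox10 and Foxd3, were under 4 on every array, so this sum is nearly all Erbb3. Trp63 fell (-2.39) among 4 keratinocyte markers, whose sum was 139.7 to 162.2 at E17.5 and 244.4 to 621.2 at E12.5, and 3 were not called. The summed signal of 5 erythroid markers was 47.5 to 74.1 at E17.5 and 8377 to 31430 at E12.5, with 3 of them lower at E17.5. Of 8 fibroblast markers 2 rose, Dpt (9.04, from under 4 on all E12.5 arrays) and Col1a1 (2.76). The 3 that fell were Pdgfra (-3.68), Twist2 (-3.21) and Prrx1 (-1.95). The median signal of the fibroblast list was 7.85, 7.68 and 6.15 on E17.5 A, B and C, against 6.84, 9.16 and 6.09 on E12.5 A, B and C. E12.5 B was therefore the array with the highest median of this list. The summed linear signal of the list was 16470 to 20790 at E17.5 and 5588 to 19810 at E12.5. Most of this sum was Col3a1, which was not called. With E17.5 A and B averaged, the calls of Lyz2 (adjusted p = 0.108), Acta2 (0.0946) and Tnmd (0.0561) were lost. Ngp, at background, gained one (0.0103). Of the erythroid markers 1 then fell, and of the fibroblast markers 1 rose (Dpt) and 1 fell (Pdgfra). In sorted bulk RNA, fewer cells of a type and less RNA per cell cannot be told apart.

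Of the 35 genes 9 rose and 6 fell, against 8.21% and 8.73% of all genes tested (16.9% in either direction), and 20 were not called. Among 15 measured MMP genes none rose, 2 fell and 13 were not called. Among 15 measured ADAMTS genes 7 rose, 3 fell and 5 were not called. The difference between the families was not tested. Among the 5 inhibitors 2 rose and 1 fell. Counting only differences of at least 2-fold, 6 rose and 3 fell, against 5.68% and 5.08% of all genes (10.8% together). The ages did not overlap in 9 genes that were higher and 8 that were lower at E17.5, against 14.2% and 17.2% of all genes (31.4% together). The median absolute difference was 0.51 over these genes and 0.17 over all genes.

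With E17.5 A and B averaged, 7 of the rises and none of the falls remained called (all genes 5.62% higher and 4.54% lower, 10.2% together). The adjusted p of the 6 falls was then 0.0544 to 0.147, and none of them was called without E17.5 replicate A or without E17.5 replicate B. The rises of Adamts1, Adamts4, Adamts5, Adamts8 and Adamts20 were called under every alternative run for them.

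**Figure D1:**
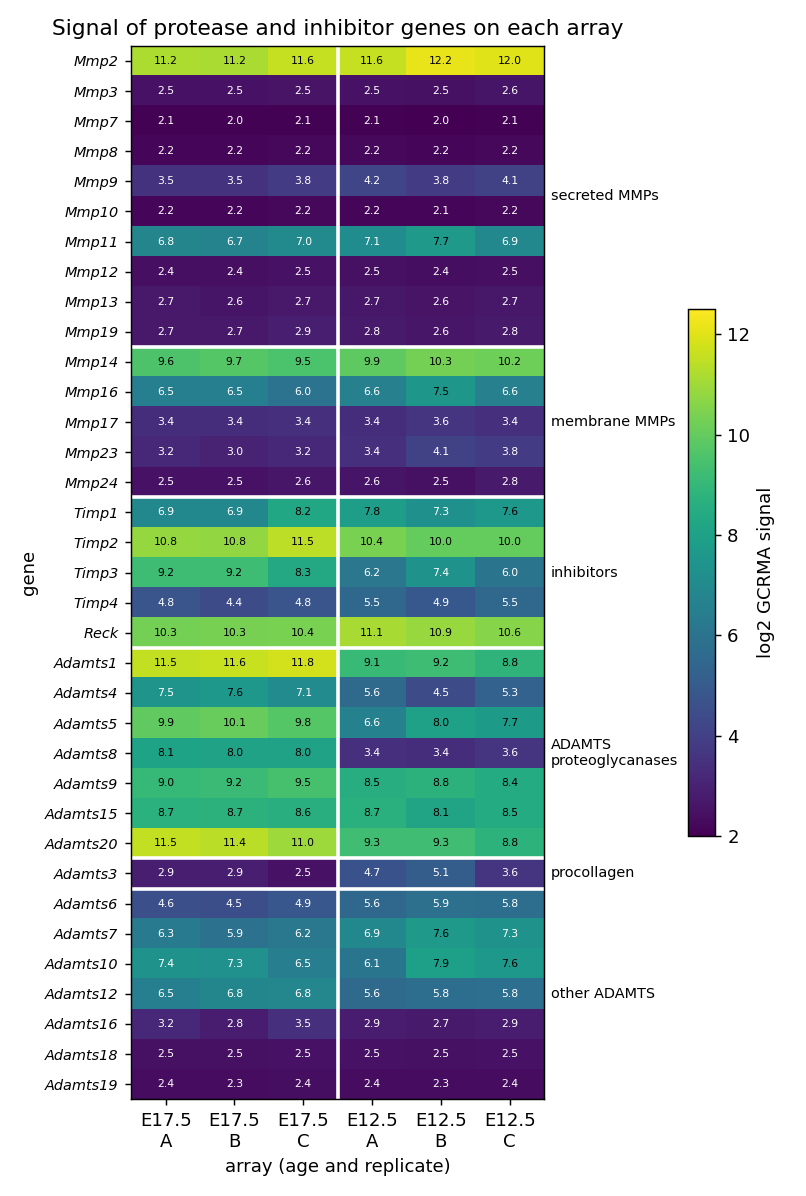
Log2 GCRMA signal of the 35 genes (rows, by subfamily) on each of the 6 arrays (columns), with E17.5 left of the white line and E12.5 right of it. Most secreted MMPs stay near 2 to 4 on all arrays, while Adamts1, Adamts4, Adamts5, Adamts8 and Adamts20 are brighter on all 3 E17.5 arrays.

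**Figure D2:**
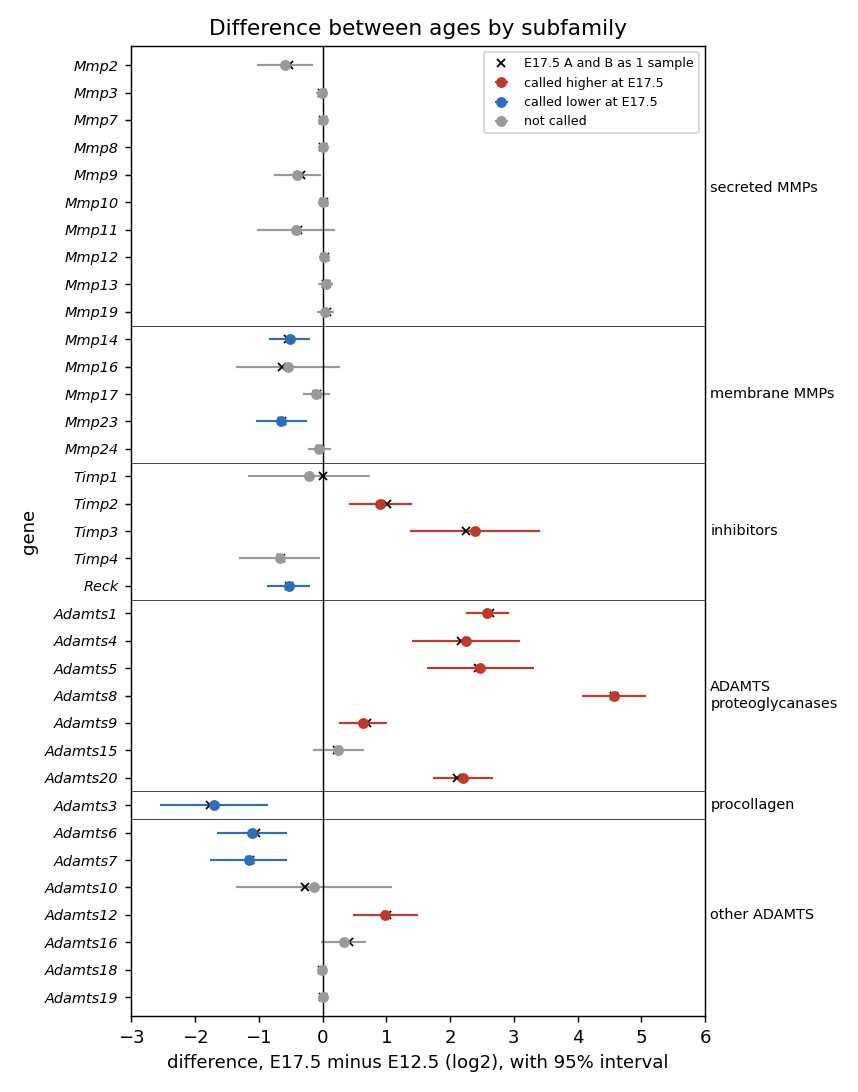
Difference between ages on the log2 scale for each gene, with its 95% interval from limma, coloured by call, and with crosses for the difference when E17.5 A and B count as 1 sample. Apart from Adamts15, the ADAMTS proteoglycanases lie to the right as called rises, and no MMP does.

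The proteoglycan-cleaving ADAMTS genes made up most of the rises. Of 7 measured, 6 rose (8.21% of all genes did), none fell (8.73% of all genes did) and 1 was not called. The median difference was 2.25, against 0.0033 over all genes. With E17.5 A and B averaged 5 rose, against 5.62% of all genes.

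Adamts8, which encodes an aggrecan-cleaving protease with anti-angiogenic activity in culture, had the largest rise of the set. Its signal was 8.09, 8.03 and 8.03 at E17.5, against 3.44, 3.39 and 3.60 at E12.5. The embryonic arrays all lay in the low range and the fetal arrays far above it, with no overlap. The difference was 4.57 (SE 0.21, adjusted p = 7.6e-05; 0.000841 averaged), the rise ranked 56 among 18182 genes by size, and it was 4.05 with values under 4 raised to 4.

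Adamts1 encodes a protease of versican and aggrecan. It stood at 11.53, 11.63 and 11.77 at E17.5, against 9.12, 9.24 and 8.81 at E12.5. Both ages were well above the low range, and the gap between them exceeded the spread within either age. The difference was 2.59 (SE 0.14, adjusted p = 0.000127; 0.001 averaged), a 6.01-fold rise.

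Adamts5, the main aggrecanase of mouse cartilage, had 9.95, 10.07 and 9.75 at E17.5, against 6.62, 7.99 and 7.73 at E12.5. E12.5 A was the lowest array, and the ages did not overlap. The gene rose by 2.48 (SE 0.35, adjusted p = 0.00439; 0.019 averaged). Its other probe sets with a mean above the low range differed by 2.69 and 2.37, both called over all named probe sets.

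Adamts4, the other classical aggrecanase, had 7.45, 7.61 and 7.07 at E17.5, against 5.61, 4.46 and 5.31 at E12.5. All fetal arrays were above all embryonic ones. It rose by 2.25 (SE 0.35, adjusted p = 0.00645; 0.0315 averaged), and its second probe set differed by 2.78.

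Adamts20, a versican protease gene whose mutation gives the white belt of belted mice, had 11.52, 11.43 and 10.97 at E17.5, against 9.26, 9.27 and 8.80 at E12.5. Replicate C was the lowest array at either age, and the ages stayed apart. The gene rose by 2.20 (SE 0.20, adjusted p = 0.000673; 0.004 averaged).

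Adamts9, another versican protease gene, differed less. Its signal was 9.03, 9.16 and 9.46 at E17.5, against 8.54, 8.75 and 8.45 at E12.5. The ages did not overlap, but the difference of 0.64 (SE 0.16, adjusted p = 0.0379) was called neither in the averaged fit (0.0874) nor without any one of the 6 arrays (adjusted p 0.0515 to 0.127). A second probe set with a mean of 6.89 differed by -0.06.

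Adamts15, which acts on versican too, was not called. It had 8.69, 8.73 and 8.61 at E17.5, against 8.67, 8.14 and 8.48 at E12.5. The ages overlapped, and the 95% interval of its difference of 0.25 ran from -0.15 to 0.65, so a change as large as those of Adamts1 or Adamts5 lay outside it.

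**Figure D3:**
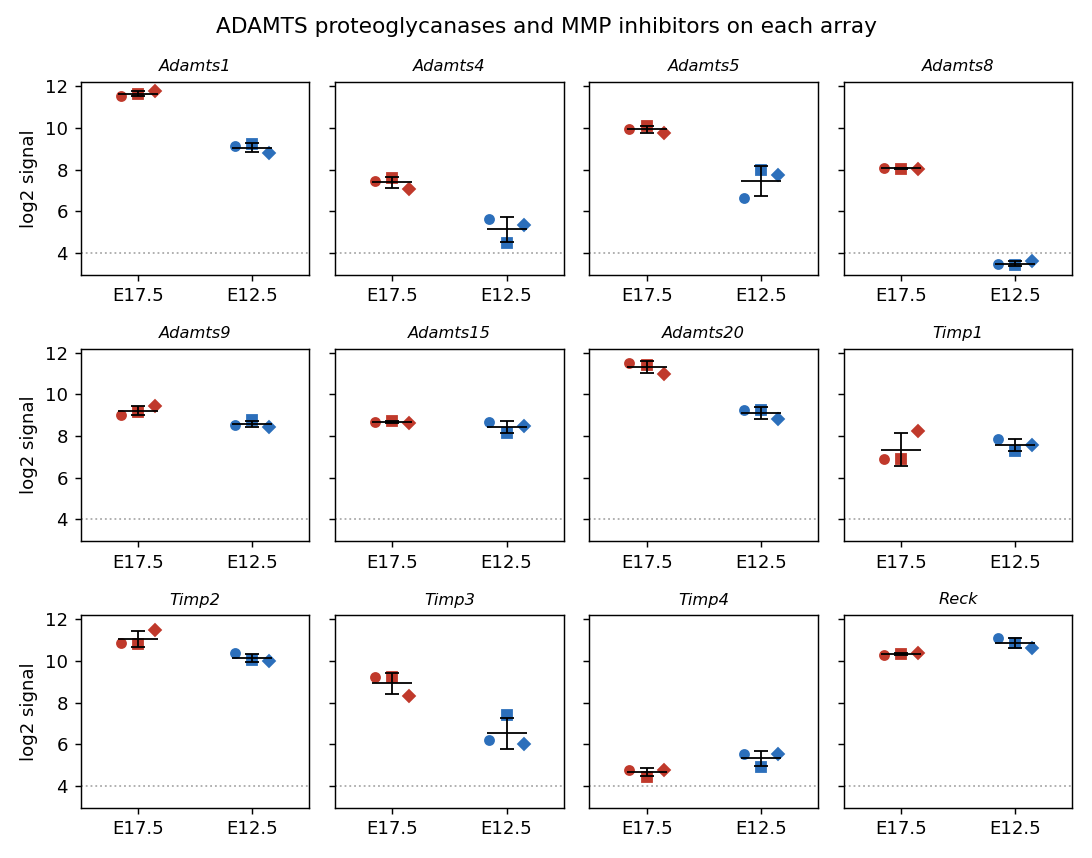
Log2 signal of the 7 ADAMTS proteoglycanases and the 5 MMP inhibitors on each array (circles replicate A, squares B, diamonds C), with E17.5 in red, E12.5 in blue, bars for mean ± SD and a dotted line at 4. Adamts8 crosses the dotted line between ages, Timp3 is higher at E17.5 and Timp1 overlaps.

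The remaining ADAMTS genes moved in both directions. Adamts12, whose product cleaves the cartilage matrix protein COMP, had 6.55, 6.82 and 6.85 at E17.5, against 5.64, 5.78 and 5.84 at E12.5. The ages were apart by more than the spread within them. It rose by 0.99 (SE 0.21, adjusted p = 0.0224), a call lost in the averaged fit (0.0876) and without any one of E17.5 A, E17.5 B, E12.5 B and E12.5 C (adjusted p 0.0503 to 0.12).

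Adamts7, the other COMP protease gene, ran the opposite way. Its values were 6.27, 5.92 and 6.21 at E17.5, against 6.91, 7.62 and 7.34 at E12.5. All embryonic arrays were above all fetal ones. It fell by 1.16 (SE 0.25, adjusted p = 0.0237), and the call was lost without any one of E17.5 A, E17.5 B, E12.5 B and E12.5 C (adjusted p 0.0661 to 0.103).

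Adamts6 had 4.56, 4.52 and 4.87 at E17.5, against 5.56, 5.89 and 5.81 at E12.5. The ages did not overlap, although neither lay far above the low range. It fell by 1.10 (SE 0.23, adjusted p = 0.019; 0.0629 to 0.103 without any one of E17.5 A, E17.5 B and E12.5 C).

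Adamts3, the only measured procollagen N-proteinase gene of the set, had 2.89, 2.87 and 2.51 at E17.5, against 4.65, 5.09 and 3.64 at E12.5. Every fetal array was in the low range, and so was E12.5 C. It fell by 1.70 (SE 0.36, adjusted p = 0.0199), but with values under 4 raised to 4 the difference was -0.58 (adjusted p = 0.321). Its call was also lost without any one of E17.5 A, E17.5 B, E17.5 C and E12.5 A (adjusted p 0.0526 to 0.0606).

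Adamts10, whose product associates with fibrillin microfibrils, had 7.40, 7.30 and 6.50 at E17.5, against 6.10, 7.92 and 7.58 at E12.5. The arrays of one age differed from each other more than the ages did, and the 95% interval of the difference of -0.13 ran from -1.35 to 1.09. Adamts16, Adamts18 and Adamts19 had values under 4 on all arrays and were not called.

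Among the inhibitors, Timp3 had the largest rise. This inhibitor is bound to the matrix and acts on MMPs, on several ADAMTS enzymes and on the sheddase ADAM17. Its signal was 9.22, 9.22 and 8.32 at E17.5, against 6.18, 7.38 and 6.02 at E12.5. E12.5 B came nearest to the fetal arrays without reaching them. The difference was 2.39 (SE 0.43, adjusted p = 0.0109; 0.0438 averaged), and other probe sets with means of 7.22 and 5.33 differed by 2.18 and 1.63, neither called over all named probe sets (adjusted p = 0.0518 and 0.0712).

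Timp2, which takes part both in inhibiting MMPs and in activating the MMP2 precursor on the cell surface, had 10.85, 10.81 and 11.47 at E17.5, against 10.38, 10.03 and 10.00 at E12.5. The ages did not overlap. It rose by 0.91 (SE 0.21, adjusted p = 0.0274; 0.0475 averaged), and the call was lost without any one of E17.5 A, E12.5 B and E12.5 C (adjusted p 0.0507 to 0.0914). Of its 6 probe sets, 1 with a mean of 8.96 differed by -0.09, while others with means of 10.23 and 6.61 differed by 1.11, which was called, and 1.19, which was not.

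Reck encodes an inhibitor anchored to the membrane that restrains MMP2, MMP9 and MMP14. It had 10.30, 10.33 and 10.37 at E17.5, against 11.12, 10.86 and 10.61 at E12.5. The fetal arrays were tightly grouped below all embryonic ones. It fell by 0.53 (SE 0.14, adjusted p = 0.0473), a call lost in the averaged fit (0.147) and without any one of the arrays other than E12.5 C (adjusted p 0.0592 to 0.151).

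Timp1 and Timp4 were not called. Timp1, a secreted inhibitor that many cells induce on injury, had 6.90, 6.90 and 8.25 at E17.5, against 7.85, 7.26 and 7.58 at E12.5. E17.5 C was the highest of the 6 arrays and E17.5 A and B the lowest, and the 95% interval of the difference of -0.21 ran from -1.17 to 0.74. Timp4 had 4.76, 4.42 and 4.76 at E17.5, against 5.53, 4.89 and 5.54 at E12.5. Its ages did not overlap, but the difference of -0.67 (SE 0.27) had an adjusted p of 0.152.

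The secreted MMPs gave no call in either direction. Mmp2, gelatinase A, had 11.20, 11.16 and 11.57 at E17.5, against 11.56, 12.15 and 11.97 at E12.5. E17.5 C and E12.5 A overlapped narrowly, and the difference of -0.58 (SE 0.19) had an adjusted p of 0.0822. Leaving out E12.5 A made it a called fall (-0.75, adjusted p = 0.0246), as did testing only genes with a mean of 4 or more, or of 6 or more (adjusted p = 0.043 and 0.0429), and its second probe set differed by -0.63. Mmp11, the stromelysin 3 gene, had 6.78, 6.69 and 6.98 at E17.5, against 7.09, 7.70 and 6.92 at E12.5. The ages overlapped, and the 95% interval of the difference of -0.42 ran from -1.03 to 0.19. Mmp9, gelatinase B, stayed between 3.53 and 4.19 on all arrays (difference -0.39, adjusted p = 0.151).

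The other secreted MMPs, Mmp3, Mmp7, Mmp8, Mmp10, Mmp12, Mmp13 and Mmp19, lay under 4 on all 6 arrays. These 7 are among 12 genes of the set (34.3%) that did so, against 39.3% of all genes. In that range a signal cannot be told from background, and a small true change could not be seen.

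Among membrane-bound MMPs, Mmp14, the activator of MMP2, had 9.58, 9.74 and 9.53 at E17.5, against 9.91, 10.30 and 10.18 at E12.5. All fetal arrays were lower than all embryonic ones. It fell by 0.51 (SE 0.14, adjusted p = 0.0455), and this call was lost in the averaged fit (0.119), without any one of the arrays other than E12.5 A (adjusted p 0.0924 to 0.156), and when its 3 probe sets were averaged (-0.09, adjusted p = 0.874). Its other probe sets, with means of 5.77 and 3.99, differed by 0.03 and 0.21. Mmp23 had 3.18, 3.04 and 3.16 at E17.5, against 3.43, 4.08 and 3.81 at E12.5. Only 1 of its 6 values exceeded 4, and its called fall of 0.65 (SE 0.17, adjusted p = 0.0434) shrank to -0.03 with values under 4 raised to 4. It was likewise lost without any one of the arrays other than E12.5 A (adjusted p 0.0686 to 0.152). The second Mmp23 probe set, with a mean of 3.26, differed by -0.10 and was not called (adjusted p = 0.613 over all named probe sets). Mmp16, a transmembrane MMP gene, had 6.55, 6.53 and 6.00 at E17.5, against 6.56, 7.55 and 6.59 at E12.5. The ages all but touched, and its difference of -0.54 (SE 0.34) had an adjusted p of 0.401. The other Mmp16 probe sets, with means of 4.53, 3.78 and 3.08, differed by -1.47, -0.65 and 0.08. None of them was called over all named probe sets (adjusted p = 0.089 for the first). Mmp17 and Mmp24 were under 4 on all arrays.

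E12.5 B, with the highest median of fibroblast markers, was not set apart by these alone. Its summed signals of macrophage, endothelial, tendon, cartilage, keratinocyte and erythroid markers were also the highest of the E12.5 arrays. Those of myogenic, bone, neutrophil and Schwann cell markers were the lowest, and that of pericyte and smooth muscle markers lay between. E12.5 B had the highest embryonic value in 14 of the 23 genes not under 4 throughout, among them Mmp2, Mmp14, Timp3, Adamts1, Adamts5 and Adamts7. The same share over all genes was not computed, so the count cannot be read as particular to these genes. E12.5 B also had the highest median over all probe sets (3.47). Without E12.5 B 6 rises were called, those of Timp3 (2.82), Adamts5 (2.75), Adamts1, Adamts4, Adamts8 and Adamts20. The 2 falls called were those of Adamts3 and Adamts6. The differences of Mmp14, Mmp23, Reck, Timp2, Adamts7, Adamts9 and Adamts12 were not called (adjusted p 0.0503 to 0.129). Leaving out E12.5 C instead also gave 6 rises and 2 falls, and leaving out E17.5 A gave 6 and 0. The part of RNA from fibroblasts, or from the other cell types whose markers moved with age, in the differences of the protease and inhibitor genes was not tested.

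**Figure D4:**
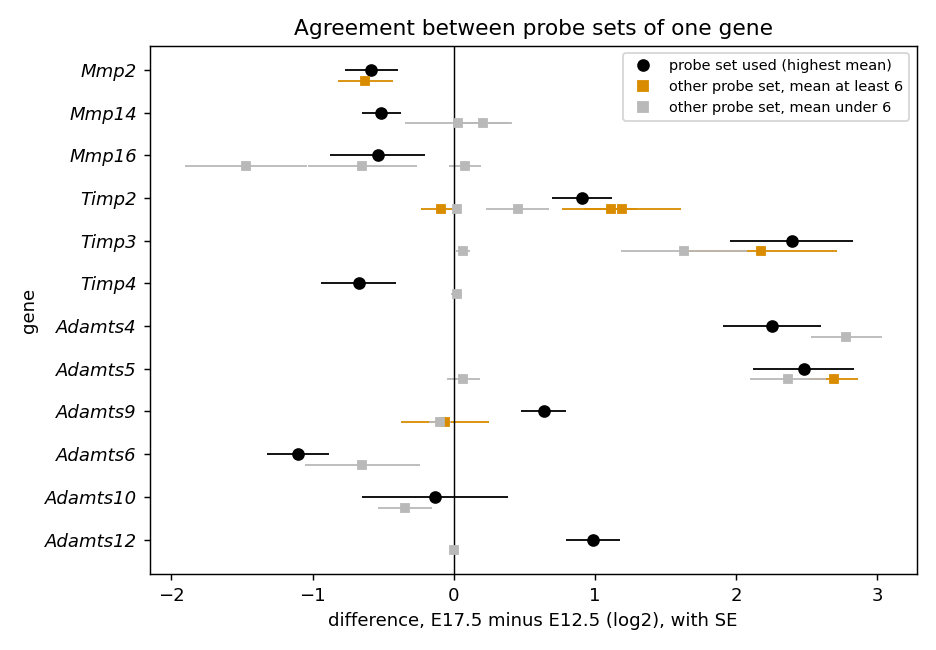
Difference between ages (log2, with SE) for the probe set used and for the other probe sets of genes whose brightest probe set had a mean of at least 4. The other probe sets with a mean of at least 6 lie close to the one used for Mmp2, Timp3 and Adamts5, while Timp2 and Adamts9 each have one near 0.

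AP-1 transcription factors, dimers of Fos and Jun proteins, are textbook activators of several MMP genes, and their genes respond quickly to stress such as tissue dissociation. Of 8 such genes, Atf3 included, 6 rose and none fell (16.9% of all genes were called in either direction), among them Fosb, Atf3 and Junb. Fosb was at 10.34 ± 0.12 at E17.5 and Atf3 at 8.85 ± 0.38, and both were under 4 on all E12.5 arrays, so that the size of their rise is not known. Junb was at 8.94 ± 0.40 at E17.5, and under 4 on E12.5 A and B. Upstream sequences were therefore read for the AP-1 motif TGANTCA, which is the same on both strands, in the 250 bases before each transcription start listed by RefSeq (GRCm38.p6). The motif was present in 6.75% of all 32851 windows, and 21 of the genes had at least 1 window.

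It was found for 5 of these 21 genes, Mmp3, Mmp7, Mmp10, Mmp12 and Mmp13. All 5 lie in the cluster of MMP genes on chromosome 9 and were under 4 on all arrays at both ages. It was found in 0 of the 6 risen genes with a window (Timp2, Timp3, Adamts1, Adamts9, Adamts12 and Adamts20) and in 0 of the 4 fallen ones, shares that so few windows cannot set apart from the 6.75% of all windows. The risen genes Adamts4, Adamts5 and Adamts8 had no window here. The windows below are the last 100 bases before the start, 5′ to 3′ on the gene's strand. Capitals mark TGANTCA and the TATA box letters TATAAA (either strand, in 12.4% of all windows), and the MMP genes at background are set beside 2 genes that rose.

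Mmp3, chr9:7445722-7445821, plus strand: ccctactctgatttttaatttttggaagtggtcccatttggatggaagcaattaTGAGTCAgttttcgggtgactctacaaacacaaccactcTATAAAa
Mmp7, chr9:7691990-7692089, plus strand: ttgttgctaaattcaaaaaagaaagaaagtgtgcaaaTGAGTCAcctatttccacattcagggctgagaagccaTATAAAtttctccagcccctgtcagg
Mmp10, chr9:7502242-7502341, plus strand: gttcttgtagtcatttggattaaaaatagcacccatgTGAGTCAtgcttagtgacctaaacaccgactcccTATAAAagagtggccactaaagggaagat
Mmp13, chr9:7272414-7272513, plus strand: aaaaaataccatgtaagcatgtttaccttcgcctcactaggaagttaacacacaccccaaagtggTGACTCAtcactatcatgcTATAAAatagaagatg
Adamts1, chr16:85803114-85803213, minus strand: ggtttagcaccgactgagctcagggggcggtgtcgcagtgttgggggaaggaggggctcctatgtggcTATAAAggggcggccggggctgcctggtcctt
Timp3, chr10:86300312-86300411, plus strand: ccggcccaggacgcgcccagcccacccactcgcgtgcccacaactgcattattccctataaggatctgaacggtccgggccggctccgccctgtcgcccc

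In the MMP windows the AP-1 motif stands a short way before the TATA letters, its first base at position -46 for Mmp3, -63 for Mmp7, -63 for Mmp10 and -35 for Mmp13, counted back from the start. Adamts1 has TATA letters at -32 and no TGANTCA in the window, and Timp3 has neither. Mmp12 held the motif before 1 of its 2 listed starts, and Mmp8, in the same cluster and also under 4 on all arrays, did not hold it. The motif CAGCTG, bound by MyoD-type factors and present in 13.0% of all windows, was found upstream of Timp2, Timp4, Reck, Adamts9 and Adamts12, that is in genes that rose, fell and were not called. A match describes letters only, and a possible part of AP-1 in the differences was not tested.

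Substrates and partners of these proteases, listed from textbook knowledge, changed in part. Of 17 measured matrix substrates 6 rose and none fell, against 16.9% of all genes called in either direction. Bgn (biglycan) rose by 4.95 and Col1a1 by 2.76. The list shares Col1a1 and Col3a1 with the fibroblast markers, and Acan and Comp with the cartilage markers, so these lists are not separate observations. Eln (elastin) was at 6.72 ± 0.97 at E17.5 and under 4 on all E12.5 arrays. Averaging E17.5 A and B ended the calls of Col1a1 (adjusted p = 0.0773) and Thbs2 (adjusted p = 0.135). Vcan, the versican gene, had 13.11, 13.13 and 13.05 at E17.5, against 12.72, 13.23 and 12.83 at E12.5. It was bright on every array and was not called (0.17, SE 0.14, adjusted p = 0.566). In the proteoglycanase clade 6 genes rose, 5 with E17.5 A and B averaged. These are RNA signals, and cleavage of the versican protein was not measured.

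Of 12 activators and surface partners 3 rose and 1 fell (33.3% called, against 16.9% of all genes). Cd44, which can dock proteases at the cell surface, rose by 6.40, the tetraspanin gene Cd82 by 4.42 and the syndecan gene Sdc4 by 2.31. Plat, the tissue plasminogen activator gene, fell by 1.89. Fbln1, the gene of a cofactor of ADAMTS1, had 10.09, 9.99 and 10.37 at E17.5, against 10.33, 11.04 and 11.04 at E12.5, and was not called (-0.65, adjusted p = 0.0979). Of 9 measured family genes outside the set, 1 fell (11.1% called, against 16.9% of all genes). This was Adamtsl2 (-1.56, SE 0.18, adjusted p = 0.0019; 0.00999 averaged), which encodes an ADAMTS-like protein without protease domain.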

How the data were processed

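The authors deposited log2 signals per probe set that the submitters' processing notes credit to GCRMA (no version named). This method corrects background by probe sequence and normalizes between arrays. Per the labels' protocols, 100 ng of RNA was amplified from the 3' end before labelling, so a signal depends on probe position and RNA integrity. Symbols came from the platform annotation, updated by entrez ID (RefSeq, GRCm38.p6): of 44994 probe sets 34909 had 1 symbol, 931 had several and 9154 were not named here.

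Ages were compared with limma 3.58.1 in R 4.3.3 (lmFit, eBayes with an intensity trend), with Benjamini-Hochberg adjustment over 18182 genes and no filter. Probe sets of 1 gene were compared in a fit over all 34909. The fit was checked on simulated data with independent arrays. Such data cannot show what the likeness of E17.5 A and B does to the p-values. The number of arrays limits the precision, and p-values measure only the spread between these arrays. The members, lists, tests and alternatives were chosen with earlier results of these data known.

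Every member is accounted for. Context lists name up to 3 called genes per direction with a mean of at least 6 at one age. Vcan, Fbln1, Thbs2 and Adamtsl2, the marker genes and, in the closing part, Adam22 and Adam11 were named after their values were seen. Matplotlib 3.10.9 drew the figures.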

Additional observations from a re-analysis of the deposited data

How the results depend on the processing

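Among the members' differences recomputed under each alternative, 498 kept their side of the threshold, 87 lost a call and 12 gained one. All 87 losses fell on the 15 called genes. The 498 also hold genes that were never called, among them the 12 under 4 on all arrays, so they do not measure how firm the calls are. The sign changed in 20 of the 498, all in 9 genes that were not called. Of the 15 called genes 5 were called under every alternative run for them. Rises among the members numbered 9, with 6 to 8 when 1 array was left out and 5 at an adjusted p under 0.01. Falls were less stable than rises. They numbered 6, with 0 to 5 when 1 array was left out, 0 with E17.5 A and B averaged, 0 at an adjusted p under 0.01, 1 with values under 4 raised to 4, 2 with the mean of all probe sets, 3 without x, s or a probe sets where another exists, and 13 with array weights, which rest mostly on E17.5 A and B (4.98 and 3.24) and, at E12.5, on replicate C (4.8), with weights of 0.14 to 0.386 for the other arrays. Over all genes 1493 rose, with 970 to 1553 without 1 array, 3204 with array weights and 841 at an adjusted p under 0.01. Over all genes 1587 fell, with 771 to 1776 without 1 array, 825 averaged, 5220 with array weights and 701 at an adjusted p under 0.01. The cause of the differences between fits was not tested. The ages share replicate letters, and deviations of same-lettered arrays correlated at -0.38, 0.255 and -0.07 (genes with a mean of at least 6). Deviations within an age are tied to each other through its mean, so these values cannot decide whether the letters pair the samples. The main fit did not use the letters. With the letter as a replicate block 6 members rose and 1 fell, and over all genes 1091 rose and 1014 fell. Signals under 4 limit what can be said of 12 members.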

Other observations

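Other protease families were also measured in these cells. Of 11 ADAM genes, which encode membrane proteases that mostly shed surface proteins, 1 rose and 2 fell, against 16.9% of all genes called in either direction. Adam9 had 11.02, 11.08 and 11.11 at E17.5, against 10.01, 9.64 and 9.87 at E12.5, and rose by 1.23 (SE 0.12, adjusted p = 0.000926; 0.00664 averaged). Adam22 and Adam11, which encode family members without protease activity, differed by -2.45 and -1.67 and were both called, with fetal arrays in the low range. Of 7 astacin proteinases and procollagen C-proteinase enhancers 1 was called (14.3%). That was Pcolce2, with 3.72, 3.95 and 2.46 at E17.5, against 8.56, 8.19 and 8.09 at E12.5, and a fall of 4.90 (SE 0.43, adjusted p = 0.00059; 0.00228 averaged). The related enhancer gene Pcolce was bright at both ages and not called (0.23, adjusted p = 0.367).

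Of 9 cathepsins and cystatin C, the lysosomal proteases and an inhibitor of them, 2 rose and 1 fell (33.3% called, against 16.9% of all genes). Ctsz rose by 0.95 (adjusted p = 0.00543; 0.0128 averaged) and Ctsl by 0.78 (adjusted p = 0.0132; 0.0462 averaged). Cst3, the cystatin C gene, fell by 0.51 (adjusted p = 0.0405), a call lost in the averaged fit (adjusted p = 0.15).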
